A study of Mus musculus with 8 samples.

Results

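The hypoxia response of wild-type mouse embryonic fibroblasts was followed across all named genes. It was read from 4 of the 8 arrays of the series, namely those titled as wild type in normoxia (N) and in hypoxia (H). Each condition had 2 arrays, 1 from a first set and 1 from a set titled as the second, and hypoxia was compared with normoxia within each set. The cells were fibroblasts of E14.5 embryos of the strain labelled C57BL6/J, wild type for Hif-p4h-1. The other 4 arrays held the same kind of cells lacking Hif-p4h-1, again 2 in normoxia and 2 in hypoxia. They entered the fit, so the standard errors (SE), p-values and calls of the wild type also rest on them. So do the choice of a probe set for each gene and the cut on low expression. Their own values are given only where the knockout is set beside the wild type. How low the oxygen was, and for how long, is not stated in the labels. Since no label says whether a group's arrays stem from different cultures or embryos, p-values here describe only how far these arrays spread, and that spread may be technical. Values are log2 expression, 1 unit being a 2-fold difference, and a change is hypoxia minus normoxia on that scale.

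Cells sense oxygen largely through the hypoxia-inducible factors (HIF). When oxygen is present, prolyl hydroxylases of the Egln family mark the HIF alpha subunits for destruction through the von Hippel-Lindau protein. When oxygen is short the alpha subunits persist, pair with Arnt and bind DNA at sites built around the letters ACGTG or GCGTG. Fibroblasts add to this a large secretory task, since they make collagen, whose prolines and lysines are hydroxylated by enzymes that themselves need oxygen.

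The labelled cell type was checked against markers of fibroblasts and of other cells. The 13 fibroblast markers on the array had medians between 11.6 and 12.15 on the 4 arrays, and their lowest single value was 5.46. No marker of red blood cells exceeded 5.09 on these arrays. The highest single marker reached 11.44 for skeletal muscle, 8.65 for neural and glial, 8.47 for endothelial and 8.0 for epithelial cells. Macrophage markers were present and differed between the sets, with medians of 7.9 in normoxia and 7.53 in hypoxia in the first set, and of 6.24 and 5.91 in the other. The median of the skeletal muscle markers was also higher in the first set, at 7.39 and 7.62, than in the second, at 4.32 and 4.46. The log2 distance from the 5′ to the 3′ control probe set, a sign of RNA quality, was larger in hypoxia in both sets, by 0.17 and 0.16 for Actb and by 0.13 and 0.33 for Gapdh. The part of these differences in the results was not tested. In such whole-culture RNA, fewer cells of a type and less RNA per cell cannot be told apart.

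Hypoxia changed 2237 of the 13647 genes tested (16.4%) at an adjusted p under 0.05 (limma, Benjamini-Hochberg). Of these 1029 rose (7.54%) and 1208 fell (8.85%). Every called gene moved the same way in both sets, which the call itself favours. Across all genes tested, called or not, the differences of the 2 sets correlated at r = 0.694 (Pearson). The rises reached further than the falls. At least 2-fold changes were seen in 118 rising genes (0.865%) and 40 falling genes (0.293%), and 20 genes rose and 0 fell by 4-fold or more. Of the called genes, 1109 changed by less than 0.5, 439 of them up and 670 down. The hypoxic and normoxic arrays did not overlap for 1675 of the called genes and for 4612 of all genes tested (33.8%). The median change over all genes tested was -0.02. At an unadjusted p under 0.05 stood 4255 genes (31.2%).

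Where a gene stood in the range of expression went with the direction of its change. Among the 4547 most strongly expressed genes 535 rose and 705 fell, whereas among the 4550 weakest genes 131 rose and 89 fell. The weakest genes nevertheless held 38 of the at least 2-fold rises and 16 of the falls of that size, against 33 and 9 among the strongest. Of the 468 tested long noncoding RNA genes 12 rose and 27 fell, both smaller shares than the 7.54% and 8.85% of all genes tested. Their median change was -0.05.

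The calls rested on the comparison within sets. Without the set in the fit only 20 genes were called, 19 higher and 1 lower. When 1 wild-type array was left out, the normoxic array of the first set left 551 calls and that of the second 817, while the hypoxic array of the first set left 490 and that of the second 1223. Common to all 8 fits with 1 array fewer were 192 rises and 137 falls. Most gene lists below are therefore given with the number of members called in all 8 fits. Counts in every list are to be read beside the 7.54% of all genes tested that rose and the 8.85% that fell. A gene named with its change was called in all 8 unless it is said which array its call was lost without.

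**Figure D1:**
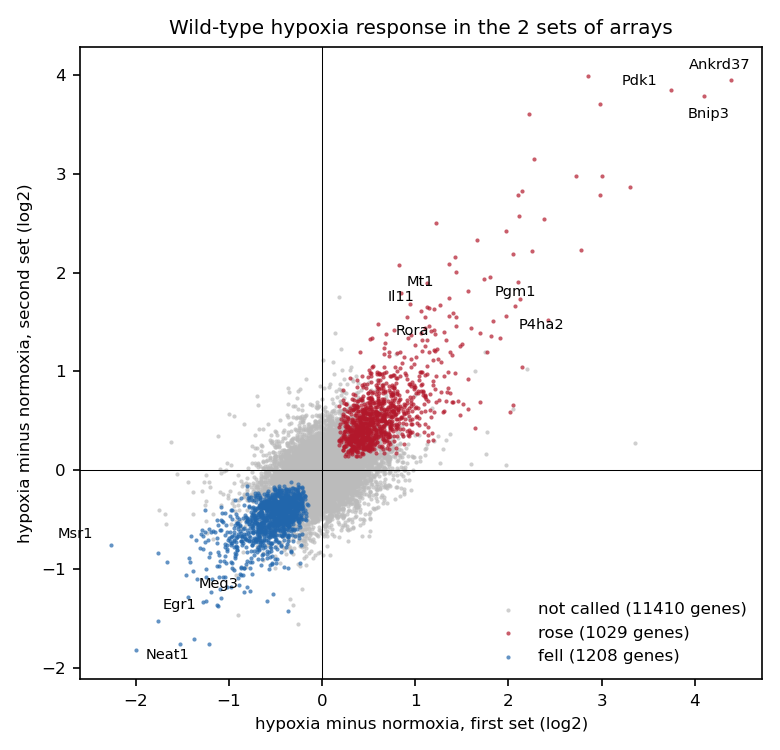
Each point is 1 of the 13647 genes tested, with the wild-type hypoxia minus normoxia difference (log2) of the first set on the horizontal axis and of the second set on the vertical axis; red genes rose, blue genes fell and grey genes were not called. The 1029 rises lie in the upper right and the 1208 falls in the lower left, and the rises extend further from 0 than the falls.

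The promoters of 4 genes that rose strongly are shown because they carry the letters around which HIF sites are built. Ankrd37 and Bnip3 had the largest changes of all, while P4ha2 and Pgm1 stand for the collagen-modifying and glycogen genes. Each window runs from 250 bases before to 50 bases after a RefSeq gene start of GRCm38.p6, 5′ to 3′ on the gene's own strand. Capitals mark ACGTG or GCGTG on either strand, so CACGT and CACGC are marked too, and overlapping matches run together. The windows are chr8:45999801-46000100 on the minus strand for Ankrd37, chr7:138909457-138909756 on the minus strand for Bnip3, chr11:54100674-54100973 on the plus strand for P4ha2 and chr4:99929201-99929500 on the plus strand for Pgm1.
Ankrd37: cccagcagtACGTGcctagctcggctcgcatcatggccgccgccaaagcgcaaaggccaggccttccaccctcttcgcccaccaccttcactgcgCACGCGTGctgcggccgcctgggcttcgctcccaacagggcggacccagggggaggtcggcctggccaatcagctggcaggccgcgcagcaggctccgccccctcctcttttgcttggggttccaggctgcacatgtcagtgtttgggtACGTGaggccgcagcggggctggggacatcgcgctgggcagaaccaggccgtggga
Bnip3: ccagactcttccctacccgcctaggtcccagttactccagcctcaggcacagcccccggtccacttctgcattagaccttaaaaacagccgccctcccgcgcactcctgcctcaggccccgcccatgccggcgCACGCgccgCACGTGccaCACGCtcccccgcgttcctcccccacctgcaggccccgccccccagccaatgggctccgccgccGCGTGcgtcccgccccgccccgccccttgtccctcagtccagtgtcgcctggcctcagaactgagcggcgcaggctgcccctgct
P4ha2: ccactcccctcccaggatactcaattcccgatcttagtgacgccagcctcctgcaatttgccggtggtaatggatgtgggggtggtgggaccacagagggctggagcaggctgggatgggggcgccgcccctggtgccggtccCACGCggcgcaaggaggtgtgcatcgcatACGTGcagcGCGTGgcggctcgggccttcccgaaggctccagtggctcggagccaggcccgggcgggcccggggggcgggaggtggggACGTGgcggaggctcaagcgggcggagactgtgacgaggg
Pgm1: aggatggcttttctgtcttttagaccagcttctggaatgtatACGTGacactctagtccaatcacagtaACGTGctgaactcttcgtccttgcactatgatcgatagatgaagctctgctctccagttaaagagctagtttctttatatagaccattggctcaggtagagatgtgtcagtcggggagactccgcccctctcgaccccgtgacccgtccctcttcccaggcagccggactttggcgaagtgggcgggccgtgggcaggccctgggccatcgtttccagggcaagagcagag

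Ankrd37, an ankyrin-repeat gene, held 4 such matches and Bnip3, a mitophagy receptor, held 5. Each strand was counted, so a single CACGTG, as in the Bnip3 window, makes 2 matches. The P4ha2 window held 4 and the Pgm1 window 2, both of the latter reading ACGTG. Such short words are common. Of the 13969 windows of tested genes, 59.5% held at least 1 match and 24.5% held ACGTG. Among the 115 windows of genes that rose at least 2-fold, 64.3% held a match, 38.3% held ACGTG and 43.5% held 2 or more matches, against 31.5% with 2 or more among all tested genes. Among the 32 windows of genes that fell at least 2-fold, 68.8% held a match, 25% held ACGTG and 21.9% held 2 or more. The groups also differed in base composition, with a median GC content of 61.3% in the windows of these rises, 57.5% in those of the falls and 60.3% over all tested genes. A match is a description of the letters and does not show binding.

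Ankrd37 read 4.91 and 5.49 in the normoxic arrays of the first and second set and 9.3 and 9.44 in the hypoxic arrays. Bnip3 read 8.86 and 9.35 in normoxia and 12.96 and 13.14 in hypoxia. Both genes were high in both hypoxic arrays with no overlap, a difference of 18-fold for Ankrd37 and 15.4-fold for Bnip3.

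Some regulators of HIF rose as well. Of 15 genes that feed back on HIF, 3 rose (20%) and none fell, beside 7.54% and 8.85% of all genes tested. Those 3 were called in all 8 fits, although the median of the list was -0.12. Egln3 and Egln1, the hydroxylases that mark HIF, rose by 3.42 ± 0.28 and 1.23 ± 0.099 (SE from the fit to all 8 arrays, n = 2 arrays per group). Cited2, which competes with HIF for a shared coactivator, read 10.8 and 11.14 in normoxia and 11.59 and 11.71 in hypoxia, a rise of 0.68 ± 0.072 (adjusted p = 0.00152). The other 12 genes of the list did not pass. Vhl changed by 0.04 ± 0.092, Hif1an, an asparagine hydroxylase acting on HIF, by -0.18 ± 0.13, and Hif3a by 0.15 ± 0.11. Epas1, the HIF-2 alpha subunit, read 7.5 and 8.77 in normoxia and 7.16 and 7.47 in hypoxia, and its difference of -0.82 ± 0.26 was not called (adjusted p = 0.0697).

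Some enzymes that modify collagen rose and some collagen chains fell, while most members of both lists did not pass. Of 19 genes for collagen hydroxylation and crosslinking, 5 rose (26.3%) and none fell, beside 7.54% and 8.85% of all genes tested. Of the rises 4 were called in all 8 fits, and the median of the list was 0.14. P4ha2, a catalytic subunit of collagen prolyl 4-hydroxylase, read 9.29 and 10.5 in normoxia and 11.27 and 12.06 in hypoxia. Both hypoxic arrays were above both normoxic ones, and the rise of 1.77 ± 0.12 was 3.41-fold (adjusted p = 2.2e-04). P4ha1, the other widely expressed catalytic subunit, rose by 1.16 ± 0.074, and its further probe set by 1.64. Plod2, the lysyl hydroxylase of collagen ends, rose by 1.33 ± 0.14 with 1.41 by a further probe set. Plod1, which hydroxylates lysines of the collagen helix, rose by 1.87 ± 0.16, but its further probe set gave 0.32 and was not called.

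Of the 21 collagen chains, 6 fell (28.6%) and none rose, beside 8.85% and 7.54% of all genes tested. The median was -0.33, at -0.35 in the first and -0.20 in the second set. None of these 6 falls was called in all 8 fits. Col7a1, the chain of anchoring fibrils, read 9.26 and 9.88 in normoxia and 7.98 and 9.08 in hypoxia, a fall of 1.04 ± 0.17 (adjusted p = 0.00743). It was not called without the normoxic or the hypoxic wild-type array of the first set, at -0.99 and -0.77. Col6a1 and Col6a2 of the beaded type VI filaments fell by 0.58 ± 0.13 and 0.47 ± 0.093. Both calls were lost without either normoxic wild-type array or without the hypoxic one of the first set, with values from -0.63 to -0.35. The main fibrillar chains did not pass, with Col1a1 at -0.05 (adjusted p = 0.78) and Col3a1 at -0.04 (adjusted p = 0.684). For Col5a1 and Col5a2, chains of type V fibrils chosen after their values were seen, the probe sets used here were not called, at -0.36 (adjusted p = 0.0701) and -0.34 (adjusted p = 0.0525), while a further probe set of each was called lower, at -1.14 and -0.49. Among 25 matrix proteases and inhibitors 5 fell (20%) and none rose, none in all 8 fits.

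Of 25 integrins and focal adhesion genes 3 fell and 1 rose, beside 8.85% and 7.54% of all genes tested, and 1 fall was called in all 8 fits. Itga8, an integrin chain that binds fibronectin and nephronectin, read 9.04 and 9.53 in normoxia and 8.02 and 8.35 in hypoxia. It fell by 1.10 ± 0.11 (adjusted p = 0.00128), and a further probe set fell by 1.97. Ddr2, a receptor tyrosine kinase that binds fibrillar collagen, read 10.63 and 10.41 in normoxia and 9.76 and 9.75 in hypoxia and fell by 0.77 ± 0.08, although a weaker probe set gave 0.23. Of 37 actin and contractile genes 10 fell and 3 rose, with 1 fall and 1 rise in all 8 fits and a median of -0.14. Pdlim5, a cytoskeletal scaffold, fell by 0.91 ± 0.13, with 2 of its 6 further probe sets also called lower, and Smtn, smoothelin, rose by 0.85 ± 0.12.

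Of 30 angiogenic factors and receptors 11 rose (36.7% of the list, beside 7.54% of all genes tested), 19 did not pass and none fell. Of the rises 4 were called in all 8 fits, and the median was 0.15. Vegfa, the main growth factor for blood vessels, read 7.63 and 9.25 in normoxia and 8.85 and 10.2 in hypoxia. The sets differed so much in level that the groups overlapped, while within sets it rose by 1.22 and 0.95. The fitted rise was 1.09 ± 0.15 (adjusted p = 0.00381), with 0.96 by a further probe set. Apln, the ligand of the apelin receptor, rose by 1.19 ± 0.15 and Angptl4, a secreted inhibitor of lipoprotein lipase, by 0.94 ± 0.14. Nrp2, a coreceptor for vascular growth factors, rose by 0.58 ± 0.091, with 1.08 and 0.15 by further probe sets, the latter not called. Adm, the peptide adrenomedullin, rose by 0.76 ± 0.13, a call lost without wild-type normoxia replicate 1 (0.59) or hypoxia replicate 2 (0.63).

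Other secreted signals rose and fell. The hormones Stc2 and Stc1, stanniocalcins, were among the 25 largest rises, at 2.49 ± 0.24 and 2.34 ± 0.15. Stc1 read 6.99 and 6.5 in normoxia and 9.1 and 9.07 in hypoxia. Mif, a cytokine already abundant in normoxia, read 13.03 and 13.02 there and 13.67 and 13.68 in hypoxia, so the arrays of each condition lay within 0.01 of each other. It rose by 0.65 ± 0.055 (adjusted p = 6.1e-04). Grem1, a secreted antagonist of bone morphogenetic proteins (BMP), rose by 0.68 ± 0.072, and Id2, a BMP-responsive inhibitor of DNA-binding factors, by 0.94 ± 0.10. Tgfb2, a transforming growth factor, fell by 0.97 ± 0.11, as did 2 of its further probe sets, by 0.75 and 0.64. Of all 36 genes of transforming growth factor and BMP signalling, 3 rose (8.33%) and 5 fell (13.9%). The shares over all genes tested were 7.54% and 8.85%. In that list 2 rises and 1 fall were called in all 8 fits, and the median was 0.01. Among 26 chemokines and cytokines 5 rose (19.2%) and 4 fell (15.4%), and Mif was the only one called in all 8 fits.

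Immediate early genes, which relay growth signals within minutes, split into both directions. Of 24 tested, 9 rose (37.5%) and 5 fell (20.8%), beside 7.54% and 8.85% of all genes tested. Called in all 8 fits were 5 of the rises and 1 of the falls. Egr1, a zinc finger factor, read 11.65 and 11.22 in normoxia and 10.52 and 9.86 in hypoxia, a fall of 1.25 ± 0.11 (adjusted p = 8.1e-04) and 2.37-fold. Rises were seen for Maff (0.93 ± 0.10), the AP-1 subunit Fosl1 (0.79 ± 0.091), the Krüppel-like factor Klf4 (0.79 ± 0.084), the orphan nuclear receptor Nr4a2 (0.76 ± 0.11) and Myc (0.58 ± 0.081). Hypoxic and normoxic arrays did not overlap for any of these 6 genes. The same held for 1675 of the 2237 called genes and for 33.8% of all genes tested. Within the network around Myc, Mxi1, which opposes Myc at shared sites, read 6.83 and 6.99 in normoxia and 8.1 and 8.66 in hypoxia and rose 2.77-fold.

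Notch signalling, by which neighbouring cells set each other's fate, had 5 of 20 genes lower (25%) and 1 higher (5%), with a median of -0.12. No Notch gene was called in all 8 fits, and over all genes tested 8.85% fell and 7.54% rose. Heyl, a target gene of Notch, read 6.22 and 6.34 in normoxia and 5.18 and 5.26 in hypoxia, a fall of 1.06 ± 0.17. That call was lost without wild-type normoxia replicate 1, at -0.95. Its further probe sets gave -0.61 and -0.10 and were not called. The receptors Notch1 and Notch3 and the ligand Jag1 were among the other falls, and the rise was that of Rbpj, the DNA-binding partner of Notch.

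Some transcription factors of mesenchymal cell fate rose. Sox9, the master factor of cartilage, read 6.71 and 6.62 in normoxia and 7.94 and 7.85 in hypoxia. The gap between conditions was far wider than the gap between sets, and the rise was 1.23 ± 0.12 or 2.35-fold (adjusted p = 0.00107), with 0.86 by a further probe set. Of the 36 mesenchyme factors tested 5 rose (13.9%) and 1 fell (2.78%), beside 7.54% and 8.85% of all genes tested. Sox9 was the only one of them called in all 8 fits, and the median was 0.19. Among 20 genes of the circadian clock 2 rose (10%) and 4 fell (20%), with 1 rise and 2 falls in all 8 fits. Rora, a nuclear receptor that activates the clock gene Arntl, read 6.97 and 7.22 in normoxia and 8.34 and 8.42 in hypoxia. It rose by 1.28 ± 0.10, and of its 7 further probe sets 5 also rose, 1 fell by 0.59 and 1 was not called. Nr1d2, a repressor that acts at the same sites, fell by 0.61 ± 0.071.

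Chromatin enzymes that use oxygen were mostly not called. Of 21 JmjC histone demethylases 4 rose (19%) and 2 fell (9.52%), beside 7.54% and 8.85% of all genes tested. Kdm3a, which removes methyl groups from lysine 9 of histone H3, was the only demethylase called in all 8 fits. It read 8.97 and 8.5 in normoxia and 10.17 and 9.72 in hypoxia, a rise of 1.21 ± 0.081 or 2.31-fold (adjusted p = 1.7e-04). Mbd3, a subunit of a nucleosome-remodelling complex, rose by 0.68 ± 0.093.

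**Figure D2:**
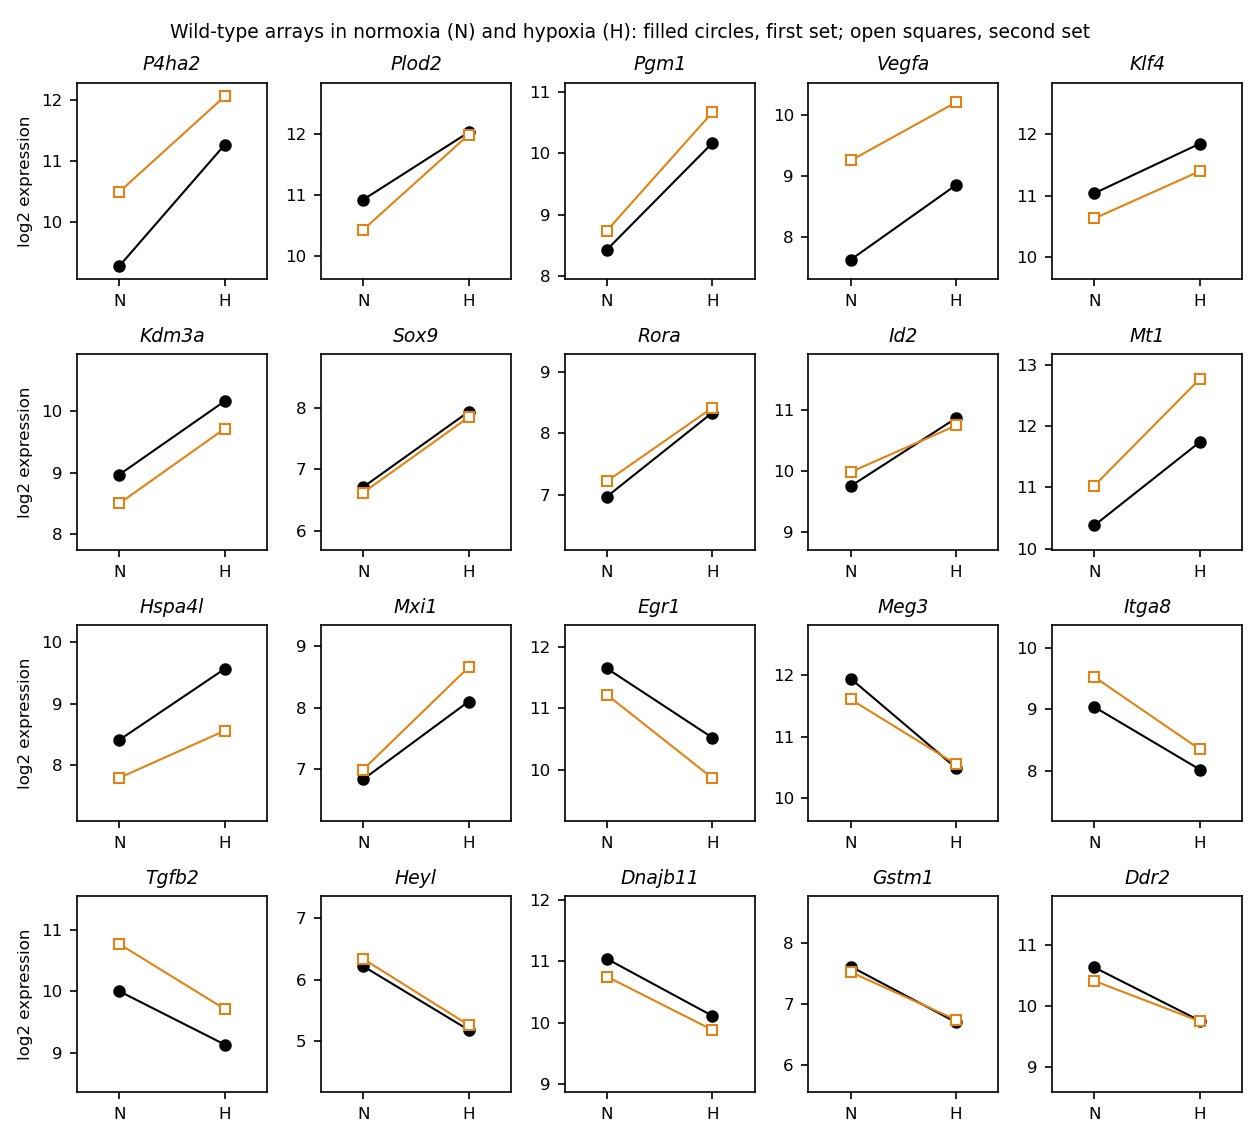
Log2 expression of 20 genes in the wild-type arrays, normoxia (N) at left and hypoxia (H) at right of each panel; a line joins the 2 arrays of a set, filled circles being the first set and open squares the second, and every panel spans 3.2 log2 units. P4ha2 and Vegfa differ between the sets in level but rise in both, while Sox9 and Mxi1 lie close together in normoxia and Egr1, Meg3 and Ddr2 fall in both sets.

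Many transcripts of glycolysis rose, and some of glycogen metabolism. Of 14 genes of glucose transport and upper glycolysis 7 rose and 7 did not pass, the rises all in all 8 fits, with a median of 0.53. Of 14 genes of lower glycolysis and lactate 9 rose and 1 fell, 8 of the rises in all 8 fits, with a median of 0.83. Of 20 glycogen genes 6 rose, 1 fell and 13 did not pass, 4 of the rises in all 8 fits, while the median of the list was 0.01. Pgm1, phosphoglucomutase, which links glucose phosphates to glycogen, read 8.43 and 8.74 in normoxia and 10.17 and 10.67 in hypoxia. It rose by 1.84 ± 0.082 or 3.57-fold (adjusted p = 1.8e-05). Gys1, glycogen synthase, rose by 1.03 ± 0.098 and Gbe1, the branching enzyme, by 1.30 ± 0.13. Pygl, a glycogen phosphorylase that breaks glycogen down, read 4.72 and 4.95 in normoxia and 6.99 and 8.1 in hypoxia and rose 6.54-fold. The fall was that of Gyg, the glycogenin primer.

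Pairs of related genes were set side by side. Both members were tested in 18 of the 22 pairs, and among these both rose in 8, 1 rose while the other did not pass in 7, they were called in opposite directions in 2 and neither passed in 1. Ldha and Ldhb, the subunits of lactate dehydrogenase, were called in opposite directions, at 1.21 ± 0.055 and -0.43 ± 0.12. The call of Ldhb was lost without any 1 of the 4 wild-type arrays, at -0.55 to -0.32, and without either hypoxic knockout array. So were the oxidases of disulphide bond formation, with Ero1a up by 1.36 ± 0.077 and Ero1b down by 0.62 ± 0.12. The call of Ero1b was lost without either normoxic wild-type array or without the hypoxic one of the first set, at -0.64 to -0.53. In the 7 pairs with 1 rise, the other member did not pass. Pfkl, a phosphofructokinase subunit, rose by 2.46 ± 0.10, while Pfkm was at 0.06 ± 0.12. Pfkfb3, an activator of phosphofructokinase, rose by 2.51 ± 0.16, with 0.53 by a further probe set that was not called, while Pfkfb4 was at -0.02 ± 0.13. Slc16a3, a lactate exporter, rose by 3.34 ± 0.19, while Slc16a1 was at 0.11 ± 0.11. Ndufa4l2, a paralog of the respiratory subunit Ndufa4, rose by 2.00 ± 0.25, while Ndufa4 itself was at 0.06 ± 0.06. Differences between the members of a pair were not tested. Both members rose for Hk1 (1.31 ± 0.087) and Hk2 (0.86 ± 0.093), the hexokinases, for the pairs of collagen hydroxylases above, and for Slc2a1 and Slc2a3, Aldoa and Aldoc, Car9 and Car12, Egln3 and Egln1, and Vegfa and Vegfb. The calls of Aldoc, Car12 and Vegfb were each kept in 5 of the 8 fits. A further, weaker probe set of Car12 showed no rise and was not called. In Cox4i1 and Cox4i2, alternative subunits of cytochrome oxidase, neither passed, at -0.13 ± 0.072 and -0.01 ± 0.14.

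**Figure D3:**
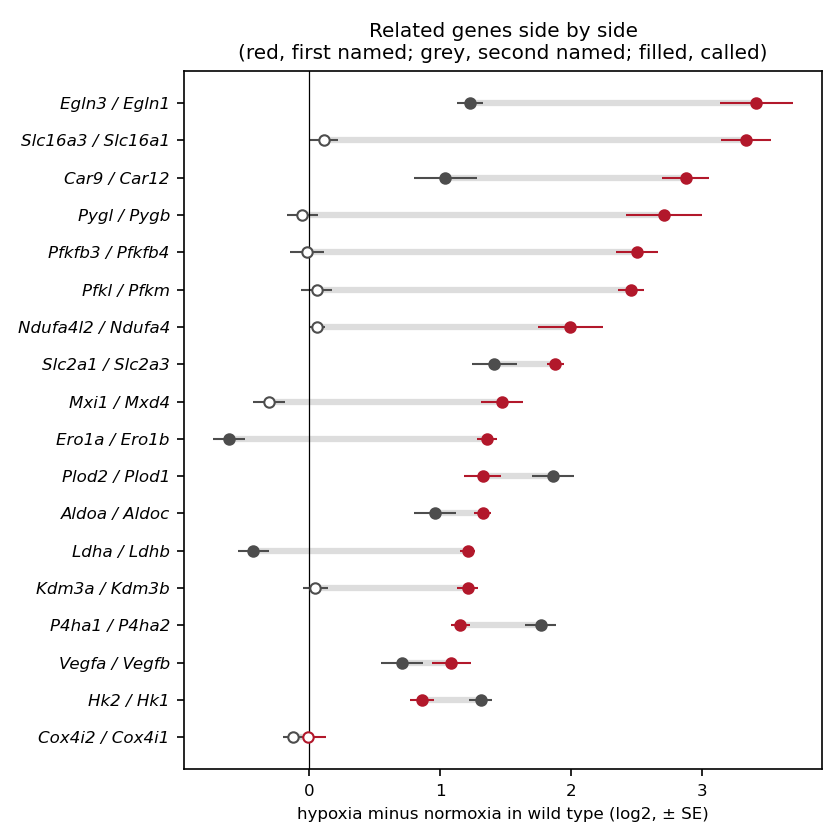
Wild-type hypoxia minus normoxia change (log2, bars ± SE, n = 2 arrays per group) of both members of each pair in which both were tested; filled points were called changed and open points were not. Ldha and Ldhb and also Ero1a and Ero1b lie on opposite sides of 0, and for Pfkl, Slc16a3 and Pygl the second member lies near 0.

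Mitochondrial genes were called in both directions, beside 7.54% rising and 8.85% falling among all genes tested. Of 21 genes of the TCA cycle 6 fell and none rose, with a median of -0.16 and 1 fall in all 8 fits. Of 22 genes of fatty acid oxidation 5 fell and none rose, with a median of -0.19 and also 1 fall in all 8 fits. That gene was Etfb, a subunit of the electron carrier between fatty acid oxidation and the respiratory chain, which read 10.82 and 11.18 in normoxia and 10.24 and 10.61 in hypoxia. It fell by 0.58 ± 0.075 (adjusted p = 0.00343). Fatty acid synthesis and storage had 9 of 29 genes higher and 2 lower, with a median of 0.24 and no call in all 8 fits. Hilpda, which inhibits fat breakdown on lipid droplets, rose by 0.79 ± 0.13, a call lost without wild-type normoxia replicate 2 (0.67). Among 33 subunits of complex I of the respiratory chain 2 rose (6.06%) and 4 fell (12.1%), with 1 rise in all 8 fits. Among 38 of complexes III to V 3 rose (7.89%) and 7 fell (18.4%), with 1 fall in all 8. Of 26 genes of mitochondrial protein import and chaperones 2 rose and 7 fell, with 1 rise in all 8 fits. Lonp1, a protease of the matrix, rose by 0.64 ± 0.078, and Mrps6 of the mitochondrial ribosome by 0.71 ± 0.082. Of 72 mitochondrial ribosomal genes 6 rose and 6 fell (8.33% each), near the shares of all genes, with 1 rise in all 8 fits.

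Of 25 genes of the pentose phosphate pathway and of nucleotide synthesis 8 fell (32%), 1 rose (4%) and 16 did not pass. Over all genes tested 8.85% fell and 7.54% rose, and the median of the list was -0.20. Atic, which completes the purine ring, read 11.31 and 10.91 in normoxia and 10.8 and 10.3 in hypoxia, and its fall of 0.56 ± 0.071 was the only one called in all 8 fits. A further probe set of Atic gave -0.215 and was not called. Mthfd1, an enzyme of the cytosolic folate cycle, fell by 0.64 ± 0.071, whereas Shmt2, a mitochondrial enzyme of folate metabolism, rose by 0.57 ± 0.074. Ampd3, which deaminates AMP, and Ak4, a mitochondrial adenylate kinase, were among the 25 largest rises, at 1.93 ± 0.18 and 2.44 ± 0.18.

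Protein folding genes of the endoplasmic reticulum (ER) and of the cytosol were called in both directions. Of 32 ER folding and secretion genes 11 fell (34.4%), 3 rose (9.38%) and 18 did not pass. Over all genes tested 8.85% fell and 7.54% rose. The median of the ER list was -0.14, and 4 of its falls were called in all 8 fits. Dnajb11, a cochaperone of the ER, read 11.04 and 10.75 in normoxia and 10.11 and 9.88 in hypoxia and fell by 0.90 ± 0.068 (adjusted p = 3.3e-04). Manf, a secreted ER stress protein, fell by 0.69 ± 0.084. Ero1a, above, was the only rise called in all 8 fits. Of 22 cytosolic heat shock genes 9 rose (40.9% of the list), 1 fell and 12 did not pass, with a median of 0.22 and 3 rises and 1 fall in all 8 fits. Hspa4l, a relative of Hsp110, read 8.41 and 7.79 in normoxia and 9.57 and 8.56 in hypoxia. It rose by 0.97 ± 0.12, and all 4 of its further probe sets rose as well, by 1.18 to 2.24. Bag3, a cochaperone of selective autophagy, rose by 0.84 ± 0.11, and Dnajb4 fell by 0.57 ± 0.071. The difference between the lists was not tested.

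Metal and redox genes changed individually. Mt1, a metallothionein that binds zinc, read 10.38 and 11.03 in normoxia and 11.74 and 12.77 in hypoxia, a rise of 1.55 ± 0.092 or 2.93-fold (adjusted p = 9.3e-05). A weaker probe set of Mt1 gave 0.38 and was not called. Mt2 rose by 1.23 ± 0.18, with overlapping groups since the second set was higher throughout. Of 22 genes of iron, heme and metallothioneins 3 rose and 3 fell (13.6% each), beside 7.54% and 8.85% of all genes tested. The metallothioneins were the calls made in all 8 fits. Among 27 antioxidant genes 3 rose (11.1%) and 4 fell (14.8%), with 1 rise and 2 falls in all 8 fits. Keap1, the adaptor that targets the antioxidant factor Nfe2l2 for destruction, rose by 0.67 ± 0.088, and the glutathione transferases Gstm1 and Gstp1 fell by 0.85 ± 0.11 and 0.44 ± 0.062. Gstm1 read 7.61 and 7.52 in normoxia and 6.7 and 6.74 in hypoxia.

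Of 28 genes of the p53 pathway 13 fell (46.4%) and none rose, beside 8.85% and 7.54% of all genes tested. The median was -0.50, and 6 falls were called in all 8 fits. Mdm4, an inhibitor of p53, was among those 6. It read 8.28 and 8.55 in normoxia and 7.51 and 7.33 in hypoxia, a fall of 1.00 ± 0.13, while its further probe sets gave -0.14 and -0.15 and were not called. Triap1, a small p53-induced survival gene, was among the 25 largest falls, at -1.17 ± 0.11. Of 25 genes of the BCL2 family and cell death 5 fell (20%) and none rose, none in all 8 fits. Bcl2 itself fell by 0.65 ± 0.11, a call lost without either normoxic wild-type array (-0.65 in both fits), with -0.23 and -0.12 by further probe sets that were not called.

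Of 35 interferon response genes 9 fell (25.7%) and 1 rose (2.86%), beside 8.85% and 7.54% of all genes tested. The median of these interferon genes was -0.35, and the rise of Ifi204 was their only call made in all 8 fits. Macrophage markers stood lower in hypoxia beside them. Of the 15 tested 2 fell and none rose, with a median of -0.40, and the log2 of their summed signal went from 12.39 to 11.98 in the first set and from 10.84 to 10.62 in the second. The part of the macrophage markers in the interferon list was not tested.

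Named long noncoding RNAs were called lower more often than higher. Of 25 in a list, 11 fell (44%) and 1 rose (4%), beside 8.85% and 7.54% of all genes tested. The median was -0.27, and 2 falls were called in all 8 fits. Among all 468 tested long noncoding RNA genes, 27 fell and 12 rose, both smaller shares than among all genes tested. The list of 25 was chosen with earlier results of these data known. Meg3, an imprinted RNA of the Dlk1-Dio3 region, read 11.95 and 11.61 in normoxia and 10.49 and 10.55 in hypoxia. It fell by 1.26 ± 0.19 or 2.39-fold (adjusted p = 0.00522), and 7 of its 10 further probe sets were also called lower. Mirg, a microRNA host gene of the same region, fell by 1.18 ± 0.17, a call lost without wild-type normoxia replicate 1 (-1.12). Norad, an RNA that binds Pumilio proteins, fell by 0.61 ± 0.086 with 0.27 and -0.18 by further probe sets that were not called. Neat1 of nuclear paraspeckles fell by 1.91 ± 0.28, a call lost without wild-type hypoxia replicate 1 (-1.54), and its further probe set, at -0.18, was not called.

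Of 60 splicing factors and RNA-binding proteins 9 rose and 9 fell (15% each), beside 7.54% and 8.85% of all genes tested. In all 8 fits 1 rise and 1 fall were called. Clk2, a kinase of splicing factors, read 8.41 and 8.05 in normoxia and 7.55 and 7.3 in hypoxia and fell by 0.80 ± 0.10, and Ccnl2, a cyclin linked to splicing, fell by 0.74 ± 0.087. Ptbp1, a repressor of exon inclusion, rose by 0.74 ± 0.076, although its further probe sets gave -0.23 and 0.04 and were not called. Probe sets at different places of a transcript can read different isoforms, and the sources used here do not place them.

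Of 39 cytosolic ribosomal proteins none rose and 2 fell, 1 of them in all 8 fits, and of 41 translation factors 4 rose and 7 fell, none in all 8. Rpl12 fell by 1.02 ± 0.11 and had no further probe set tested. Of 20 aminoacyl-tRNA synthetases 6 fell and none rose, and Gars, which charges tRNA with glycine, was the only one called in all 8 fits, with a fall of 0.62 ± 0.075. Etf1, which ends translation at stop codons, was among the 25 largest falls at -1.25 ± 0.11, but its 4 further probe sets lay between -0.27 and 0.28 and none was called. Some growth regulators were called in either direction. Of 25 cyclins, their kinases and inhibitors 3 rose and 3 fell, with 1 of each in all 8 fits and a median of 0.06. Of 38 genes of G2/M and mitosis 3 rose and 5 fell, with 2 falls in all 8 fits and a median of 0.04. Among all genes tested 7.54% rose and 8.85% fell. Ddit4, an inhibitor of the mTOR growth pathway, rose by 0.68 ± 0.071 and Ccng2, a cyclin of non-dividing cells, by 1.00 ± 0.14. A further probe set of Ccng2 gave 0.06 and was not called. Cdk1, the main kinase of mitosis, fell by 0.65 ± 0.072, and its groups overlapped.

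**Figure D4:**
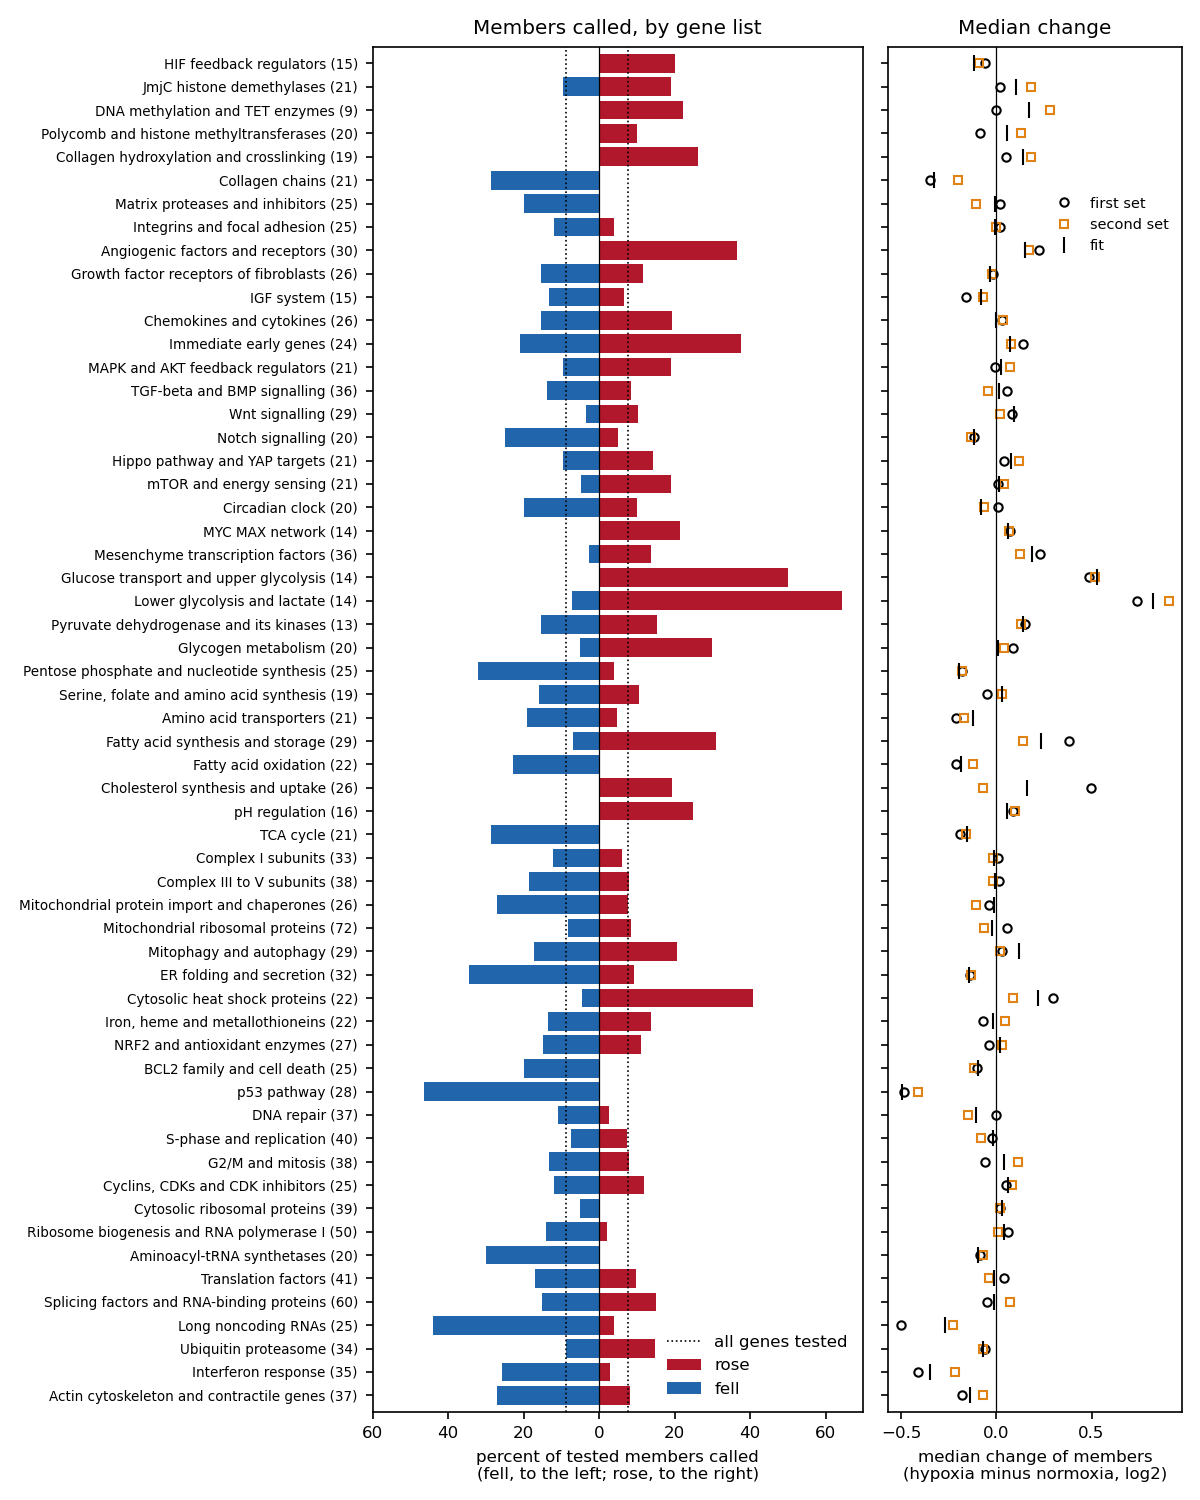
Left, for each gene list with its number of tested members in brackets, the percent of members that rose (red, to the right) or fell (blue, to the left) in wild-type hypoxia, with dotted lines at 7.54% and 8.85% for all genes tested; right, the median change (log2) of the members in the first set, the second set and the fit. The glycolysis lists lie furthest to the right, with medians of 0.53 and 0.83, and the p53 pathway furthest to the left at -0.50; the cholesterol list differs between the sets, at 0.50 and -0.07.

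Many genes were read by more than 1 tested probe set. Of the 118 rises of at least 2-fold, 58 had another tested probe set, and for 41 of these another probe set was called the same way and for 1 the opposite way. Of the 40 falls of that size, 13 had another tested probe set, and for 4 another was called the same way and for 0 the opposite way. Over all 1029 rises 636 had another tested probe set, with another called the same way for 268 and the opposite way for 34. Over all 1208 falls the numbers were 711, 213 and 47.

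Most genes called in wild type had the same direction in the knockout, and no gene's response differed between the genotypes by the test. In the knockout 1380 genes were called (10.1%). Of the 2237 genes called in wild type, 2217 had the same direction in the knockout and 1163 were called there in that direction. The genotype by oxygen interaction called 0 of 13647 genes (0%), with a smallest adjusted p of 0.827 in limma, and 329 genes (2.41%) had an unadjusted p under 0.05. Of the 118 genes that rose at least 2-fold in wild type, 109 had the larger change there, with medians of 1.31 in wild type and 1.10 in the knockout. These genes were chosen by their wild-type value, which favours that order. Of the 83 genes chosen in the same way in the knockout, 60 also had the larger change in wild type, with medians of 1.47 in wild type and 1.27 in the knockout. But 69 genes belong to both choices, so the second is not independent of the wild-type value. For falls the order went with the choice, with 37 of 40 larger in wild type when chosen there and 8 of 24 when chosen in the knockout. Bnip3 had the smallest unadjusted interaction p, 6.1e-05, with changes of 3.95 ± 0.085 in wild type and 3.05 ± 0.085 in the knockout, and it did not pass after adjustment.

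**Figure D5:**
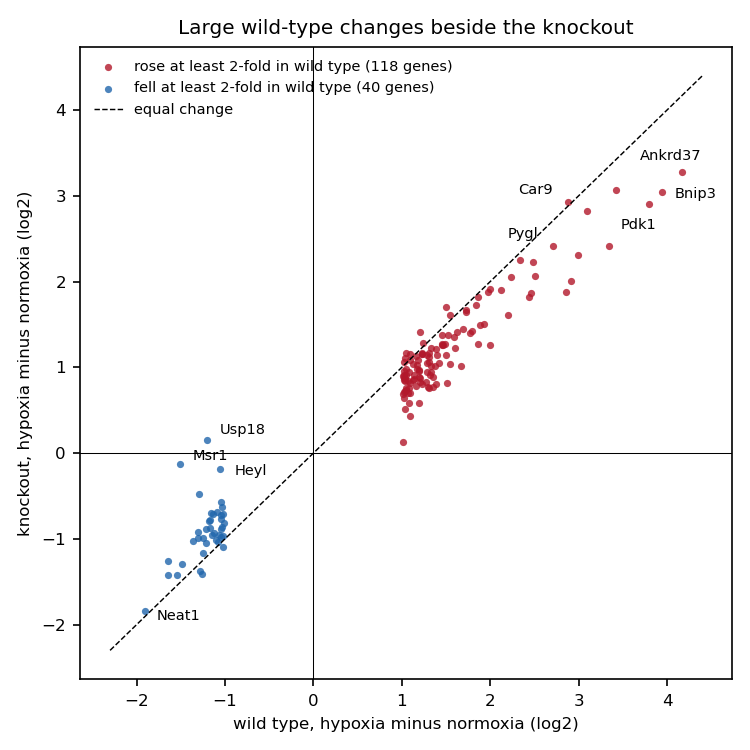
Hypoxia minus normoxia change (log2) in wild type, horizontal, and in the knockout, vertical, for the 118 genes that rose (red) and the 40 that fell (blue) at least 2-fold in wild type; the dashed line marks equal change. Most red points lie below the line, 109 of 118 having the larger change in wild type, and Usp18 and Msr1 lie near 0 in the knockout.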

How the data were processed

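Each array received biotinylated cRNA prepared from 5 ug of total RNA, per the labels. The values deposited by the authors are log2 expression per probe set, from RMA of unstated version per the submitters' processing notes. RMA corrects background, equalises the arrays' distributions and summarises probes, so these values cannot show a change common to every transcript. Array medians lay between 5.01 and 5.12. For arrays, their number limits the precision.

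Of 45101 probe sets, 64 were controls. Of the rest, 34945 had 1 gene symbol in the platform annotation, 932 had several and 9160 were not listed there. Symbols were updated by Entrez identifier (34741 matched) with the GRCm38.p6 RefSeq table. The probe set of highest mean stood for each of 18193 genes, and genes with a mean under the 25th percentile (4.17) were left out, so 13647 were tested. Further probe sets were fitted on their own.

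With R 4.3.3 and limma 3.58.1, group means plus a set term (the block) were fitted to all 8 arrays, followed by eBayes with a trend (3 residual and 5.22 prior degrees of freedom). The script was tested on simulated data. The labels mark the second set, and the difference between sets correlated between groups at 0.71 to 0.85 across genes. The arrays of a set thus shared a shift, which the set term takes up. That does not show that a normoxic and a hypoxic array came from the same culture. Adjusted p is two-sided, by Benjamini-Hochberg over all genes tested.

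The comparison, the 58 gene lists (1554 of 1714 genes tested, some in more than 1 list), 7 marker lists, 22 pairs and the rule for named genes were chosen with earlier results of these data known. The rule takes the 25 largest rises and falls that moved alike in both sets, up to 6 members of each list by adjusted p, all members of lists of 15 or fewer, both members of each pair, the 5 smallest interaction p in each direction, and Egln2, Egln1, Egln3, Hif1a, Epas1 and Arnt. The printed promoters were chosen after values were seen. Promoter windows came from RefSeq, found for 10935 tested genes. Alternatives changed the block, the variance trend, the filter, the choice of probe set and the scaling, and left out each array in turn.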

Additional observations from a re-analysis of the deposited data

Results flagged for a closer look

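Among the named genes called in wild type, Usp18 and Wsb1 moved in opposite directions in the genotypes in both sets of arrays. Usp18, a protease that removes the ubiquitin-like protein Isg15, differed by -1.39 and -1.02 in the wild-type sets and by 0.12 and 0.18 in the knockout sets. Subtracting the wild-type from the knockout response gave 1.36 for Usp18 (interaction adjusted p = 1 in limma). Wsb1, a subunit of a ubiquitin ligase, differed by 0.31 and 0.34 in wild type and by -0.18 in each knockout set. The same subtraction gave -0.51 for Wsb1 (interaction adjusted p = 1). Neither difference passed the test, and both genes were among those with the smallest unadjusted interaction p.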

How the results depend on the processing

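The comparison depended on treating the arrays as pairs. Without the replicate block the fit called 20 genes, 19 higher and 1 lower, against 2237, 1029 and 1208 with it. With the set as a random block the counts were 1133, 542 and 591, and in the wild-type arrays alone, with 1 residual degree of freedom, 487, 258 and 229. eBayes without the trend gave 1342, 646 and 696. The mean of all probe sets of a gene gave 1473 calls, of which 740 were lower. The fits without 1 array ranged from 490 to 1975 calls, from 288 to 905 higher and from 202 to 1071 lower. Each other setting stayed within 1.5 times these counts, and centring on array medians gave 1132 higher and 1088 lower. The interaction called 0 genes in each alternative fitted, and in the wild-type arrays alone it could not be fitted.

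Taking the mean of all probe sets turned the sign of 12 named genes, to 0.17 for Grb10, 0.083 each for Mob1a and Csnk1d, 0.05 for Atp5g1, -0.022 for Nfe2l2, 0.03 for Ncl, 0.01 for Eprs, 0.035 for Eef1d, -0.20 for Rbm25, -0.11 for Mbnl1, -0.002 for Psmd7 and 0.41 for Actn1, as the probe sets of these genes disagree. No other setting turned the sign of a named gene that was called. With 2 arrays per group, small changes rest on the variance shared between genes, and 1109 of the calls were under 0.5.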

Other observations

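Several large changes belonged to genes outside the described pathways. Krt19, a keratin of simple epithelia, read 7.71 and 7.62 in normoxia and 9.69 and 10.04 in hypoxia, a rise of 2.20 ± 0.19 (adjusted p = 7.6e-04). Of 8 epithelial markers tested, a list that does not hold Krt19, 1 rose (Dsp) and none fell, and the medians of all 11 on the array lay between 4.57 and 4.9. Aqp5, a water channel of glands, rose by 1.98 ± 0.27, and Tmem45a, a membrane protein, by 2.24 ± 0.18. Among the falls, Srpx, a sushi-repeat protein, read 7.81 and 7.79 in normoxia and 6.05 and 6.27 in hypoxia, and Rfx5, a transcription factor of antigen presentation, fell by 1.36 ± 0.14. Of 8 neural and glial markers tested 2 rose and none fell, with a median of 0.48, and Stmn2, a tubulin-binding protein, read 8.04 and 5.72 in normoxia and 8.65 and 6.7 in hypoxia.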
